A study of Mus musculus with 8 samples.

Results

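Blood and lymphatic endothelial markers were followed through granulosa cells of mice lacking the progesterone receptor isoform PGR-A. The list held 32 genes, chosen by name as markers of vessel lining cells, and all 32 were found among the 51886 gene symbols of the table. They encode junction and surface proteins, receptors with their ligands, transcription factors and an enzyme of the vessel wall. The genotypes overlapped for each of the 32 genes, as for most genes: of all genes tested, 3.42% separated. The clearest patterns were an unequal level of the markers and a single wild-type library in which most of them were highest.

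Endothelial cells line blood and lymphatic vessels and hold together through the cadherin Cdh5 and the adhesion molecule Pecam1. In the ovary the granulosa layer of a follicle has no vessels of its own before ovulation: capillaries and lymphatics lie in the surrounding theca, and blood vessels grow into the granulosa layer after the luteinising hormone surge as the corpus luteum forms. Lymphatic identity is set by the transcription factor Prox1, and lymphatic growth is driven through the receptor Flt4.

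The samples were peri-ovulatory granulosa cells from the PGR-A KO strain, with 4 knockout and 4 wild-type (WT) libraries. Both groups came from mice of 21 to 27 days that were given 5 IU eCG, which stimulates follicle growth, and 46 h later 5 IU hCG, which triggers ovulation, and cells were collected 8 h after hCG. Each library pooled 2 to 3 mice, so p-values measure the spread between pools. The labels give no promoter, Cre line or background strain for the knockout, and the gene-level values of the receptor gene do not distinguish its isoforms and so do not check the deletion. Values are TPM, the share of each gene in all transcripts of its library, corrected for transcript length and scaled to a fixed total, which allows levels of different genes to be compared within a library. TPM keeps no sequencing depth, so no counting error can be given. In these bulk samples fewer cells of a type and less RNA per cell cannot be told apart.

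The markers did not stand at a common level. Cd34, a sialomucin of endothelial and progenitor cell surfaces, was by far the most abundant, with a mean over the 8 libraries of 348 TPM, above 99.3% of the symbols in the table. Another 5 members had means between 10 and 100 TPM: Pdpn at 40.5 TPM, Reln at 19.7 TPM, Apln at 19.0 TPM, Ramp2 at 14.2 TPM and Cdh5 at 13.7 TPM. Egfl7, Sox18 and Ccl21a had means of 9.90, 8.57 and 6.70 TPM, 14 members lay between 1 and 5 TPM, and 9 lay under 1 TPM. Pecam1, a general marker of endothelium, had a mean of 4.65 TPM, and Cdh5, a marker of the same cells, was 1.38 to 4.91 times as high as Pecam1 within a library. The ratio of Cd34 to Pecam1 within a library ran from 47.2 to 119. Which cells gave the Cd34 level was not tested, so it is not read here as an endothelial level. The lowest Cd34 value, 188 TPM, lay above the highest Pdpn value, 49.5 TPM, and the lowest Pdpn value, 31.98 TPM, above the highest Reln value, 25.0 TPM. From Reln downwards, each member overlapped with its neighbour in the order of levels in its range over the libraries.

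**Figure D1:**
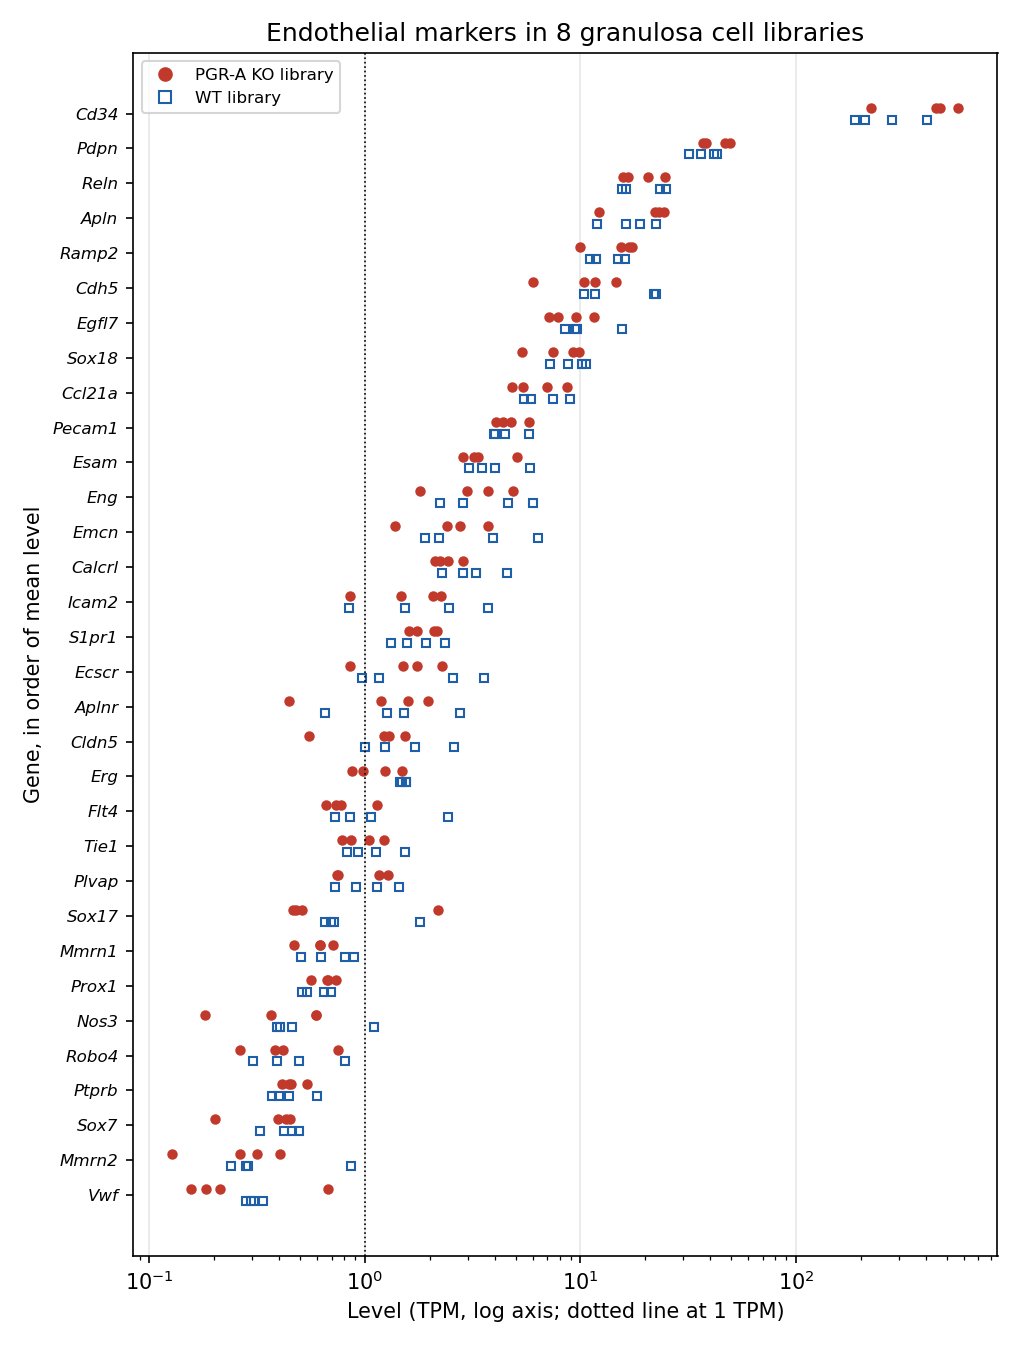
Level of each of the 32 members in every library (horizontal log axis, TPM), with the genes in order of their mean; filled circles are the 4 PGR-A KO libraries and open squares the 4 WT libraries, each point a library. Cd34 stands alone above 100 TPM, 9 members have means under 1 TPM, and for each gene the circles and squares overlap.

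The sequence before the start of 4 members is shown because their levels differed in pattern across libraries: Eng and Cldn5 were highest in WT replicate 2, whereas Cd34 was highest in PGR-A KO replicate 1 and Reln in WT replicate 3. RefSeq promoters on GRCm38.p6, the assembly behind mm10, matched 16 of the 32 members, with 21 start sites. The 250 bases before each start are given 5′ to 3′ on the gene's strand, at chr1:194938571-194938820 (plus strand) for Cd34, chr5:22344706-22344955 (minus strand) for Reln, chr2:32646345-32646594 (plus strand) for Eng and chr16:18776597-18776846 (plus strand) for Cldn5. Capitals mark a match to any of the motifs described after the sequences.
Cd34: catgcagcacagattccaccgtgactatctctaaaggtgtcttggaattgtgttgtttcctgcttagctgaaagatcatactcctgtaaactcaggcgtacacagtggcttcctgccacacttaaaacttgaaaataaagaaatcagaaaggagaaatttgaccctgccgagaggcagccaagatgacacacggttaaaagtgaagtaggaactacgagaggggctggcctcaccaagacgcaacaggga
Reln: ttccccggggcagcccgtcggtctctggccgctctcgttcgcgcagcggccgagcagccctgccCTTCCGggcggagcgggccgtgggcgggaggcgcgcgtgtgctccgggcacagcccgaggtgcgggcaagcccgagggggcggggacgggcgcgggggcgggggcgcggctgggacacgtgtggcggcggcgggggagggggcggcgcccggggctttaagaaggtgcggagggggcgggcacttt
Eng: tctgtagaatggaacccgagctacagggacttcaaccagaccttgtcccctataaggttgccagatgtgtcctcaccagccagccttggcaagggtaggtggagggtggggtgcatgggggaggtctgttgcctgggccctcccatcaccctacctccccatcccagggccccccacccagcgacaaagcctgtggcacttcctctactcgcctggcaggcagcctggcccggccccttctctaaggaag
Cldn5: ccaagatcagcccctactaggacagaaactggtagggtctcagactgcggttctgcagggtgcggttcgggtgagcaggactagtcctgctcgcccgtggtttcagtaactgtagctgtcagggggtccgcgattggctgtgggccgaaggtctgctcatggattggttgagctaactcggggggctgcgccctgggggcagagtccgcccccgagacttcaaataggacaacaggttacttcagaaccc
The motifs searched on both strands were CGGAAG, a core bound by ETS factors such as Erg, ACAATNG, a core bound by SOX factors, and the palindromic consensus of the progesterone response element. The ETS core was found at 2 of the 21 member start sites (9.52%), those of Reln and Tie1, beside 13.6% of all 32851 RefSeq start sites searched over the same length. The SOX core was found at 1 of 21 (4.76%), that of Robo4, beside 6.91% of all, and the progesterone response element at 0 of 21, beside 0.387% of all. Of the sequences shown, Reln holds the only capitals, and a match describes these letters and no bound site.

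The members were then compared between PGR-A KO and WT. Of the 32 members, 22 reached 1 TPM in at least 4 of the 8 libraries and were tested with limma on log2(TPM + 1). At an adjusted p under 0.05, 0 of these 22 passed, beside 0.0138% of the 14472 genes tested. At an unadjusted limma p under 0.05 again 0 were lower, beside 5.33% of all genes, and 0 were higher, beside 0.974% of all, together 6.31%. The 10 other members were compared by an exact 2-sided permutation test of mean TPM, and 0 of 10 had a p under 0.05, beside 1.98% of 18779 genes below that filter. The adjusted limma p of the members ran from 0.795 to 0.980. In 0 of the 32 members did the groups separate without overlap, beside 3.42% of all genes tested, a share that leaves out genes below the filter. Means in PGR-A KO were lower for 16 and higher for 6 of the 22 on the log2(TPM + 1) scale, and 57.4% of all genes tested were lower. Their median log2 change was -0.14, beside -0.023 over all genes tested. Over all 32 members, mean TPM was lower in KO for 23 and higher for 9. The split depended on WT replicate 2: without it, 8 of 20 members tested were lower and 12 higher. Their median was then 0.021, beside -0.034 over all genes tested. That library was the highest for 20 of the 32 members, so dropping it raises their changes by construction. With any other library left out, 12 to 16 members were lower and 5 to 9 higher. For 19 of the 22 the 95% confidence interval of the log2 change lay within 1 in either direction. The others were Cd34, Cdh5 and Emcn. This scale understates changes of low genes, so an interval within 1 allows a larger change of their TPM. For example, the log2 change of Cldn5 was -0.28 at a pseudocount of 1 and -0.47 at 0.1.

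**Figure D2:**
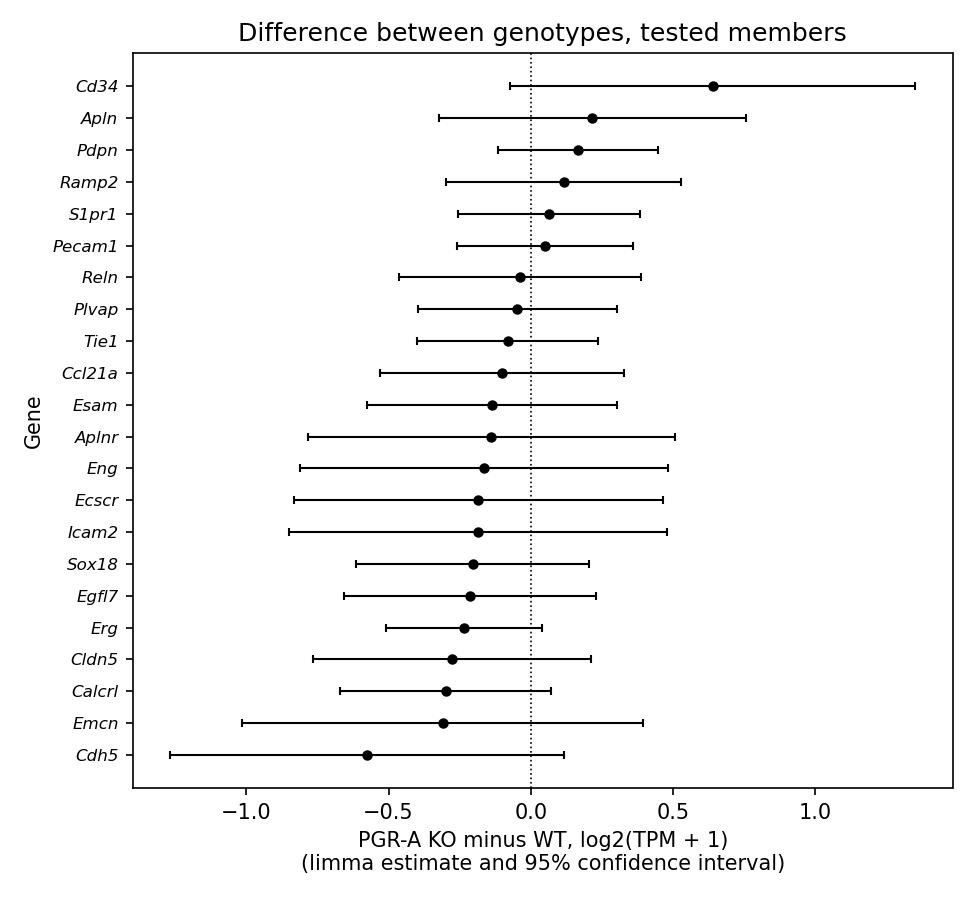
Difference between PGR-A KO and WT for the 22 tested members (horizontal axis, log2(TPM + 1), knockout minus wild type); points are limma estimates and bars are 95% confidence intervals. Each interval includes 0, and the estimates run from -0.57 for Cdh5 to 0.64 for Cd34.

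Among the 9 junction and surface proteins, Cd34 had the lowest p of all members. Its levels were 566, 445, 223 and 467 TPM in PGR-A KO replicates 1 to 4 and 405, 279, 208 and 188 TPM in WT replicates 1 to 4. PGR-A KO replicates 1, 2 and 4 were the highest libraries, followed by WT replicate 1, and PGR-A KO replicate 3 lay among the other WT libraries, so the groups overlapped. The means were 425 ± 145 TPM in KO against 270 ± 98.3 TPM in WT (SD, n = 4 each), a log2 change of 0.64 (SE 0.32, 95% confidence interval -0.072 to 1.35, limma adjusted p = 0.795). With a library left out the log2 change of Cd34 was lowest at 0.48 with PGR-A KO replicate 1 dropped and highest at 0.92 with PGR-A KO replicate 3 dropped. With PGR-A KO replicate 3 and also WT replicate 1 left out, it was 1.14 with a limma adjusted p of 0.0106. These 2 libraries were picked on their values in an earlier analysis of these data, and without them 1131 genes passed, so that p does not measure an effect of genotype. Cd34 lies on chromosome 1 (194938819 to 194961279, plus strand, GENCODE M21 on mm10) and overlaps Gm16897 on the other strand.

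Cdh5, the adhesive cadherin of endothelial junctions, differed the other way. It stood at 14.7, 11.7, 5.99 and 10.4 TPM in PGR-A KO replicates 1 to 4 and at 21.9, 22.5, 11.7 and 10.4 TPM in WT replicates 1 to 4. WT replicates 1 and 2 were high, and WT replicates 3 and 4 lay within the KO range. The means were 10.7 ± 3.61 TPM in KO against 16.6 ± 6.48 TPM in WT (SD, n = 4 each), a log2 change of -0.57 (SE 0.31, 95% confidence interval -1.27 to 0.12, limma adjusted p = 0.796). With a library left out the log2 change of Cdh5 ran from -0.76 (without WT replicate 4) to -0.35 (without PGR-A KO replicate 3). It was -0.20 with PGR-A KO replicate 3 left out along with WT replicate 1. Cdh5 lies on chromosome 8 (104101625 to 104144511, plus strand).

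The level of Pecam1, which links endothelial cells to each other and to passing leukocytes, was nearly equal in the genotypes. Pecam1 read 4.75, 5.80, 4.36 and 4.05 TPM in PGR-A KO replicates 1 to 4 and 4.46, 5.77, 4.00 and 3.98 TPM in WT replicates 1 to 4, a log2 change of 0.050 with a 95% confidence interval of -0.26 to 0.36. The tight junction protein Cldn5, at 1.15 ± 0.422 TPM in KO against 1.63 ± 0.698 TPM in WT (SD, n = 4 each), and the sialomucin Emcn, at 2.57 ± 0.971 TPM in KO against 3.61 ± 2.05 TPM in WT (SD, n = 4 each), had log2 changes of -0.28 and -0.31. Their intervals included 0, from -0.77 to 0.21 for Cldn5 and from -1.01 to 0.40 for Emcn. Without WT replicate 2 the log2 change was -0.12 for Cldn5 and -0.049 for Emcn, and the lowest values with a library left out were -0.40 (without WT replicate 4) and -0.50 (without WT replicate 3). The adhesion proteins Esam and Icam2 and Plvap, which forms the diaphragms of fenestrated capillaries, had log2 changes of -0.14, -0.19 and -0.048. Within this role 6 members were lower and 3 higher, the third of the higher being Pdpn.

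Growth factor receptors of vessels were low throughout. Eng, a coreceptor for TGF-beta family ligands, had 3.34 ± 1.28 TPM in KO against 3.92 ± 1.71 TPM in WT (SD, n = 4 each), a log2 change of -0.16 (95% confidence interval -0.81 to 0.48). Tie1, a receptor tyrosine kinase that modulates angiopoietin signalling, had 0.979 ± 0.198 TPM in KO against 1.10 ± 0.309 TPM in WT (SD, n = 4 each), a log2 change of -0.081 (95% confidence interval -0.40 to 0.24). The phosphatase Ptprb and the guidance receptor Robo4 stayed under 1 TPM in every library, with means of 0.462 and 0.453 TPM in KO and 0.453 and 0.497 TPM in WT. The exact 2-sided permutation p was 0.886 for Ptprb and 0.686 for Robo4.

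Of the G protein-coupled receptors, Calcrl had the lowest p. Calcrl forms the adrenomedullin receptor with its partner protein Ramp2. It stood at 2.11, 2.42, 2.22 and 2.85 TPM in PGR-A KO replicates 1 to 4 and at 2.86, 4.58, 3.27 and 2.29 TPM in WT replicates 1 to 4. WT replicate 2 was the highest library and WT replicate 4 lay within the KO range. The log2 change of Calcrl was -0.30 (SE 0.16, 95% confidence interval -0.67 to 0.072, limma adjusted p = 0.799). With a library left out it ran from -0.41 (without WT replicate 4) to -0.16 (without WT replicate 2).

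Ramp2 was more abundant than its receptor, 3.27 to 7.31 times as high within a library. Its levels were 15.4, 17.3, 9.91 and 16.8 TPM in PGR-A KO replicates 1 to 4 and 16.1, 15.0, 11.1 and 11.8 TPM in WT replicates 1 to 4. PGR-A KO replicate 3 was the lowest library, and the groups overlapped, with a log2 change of 0.12 (95% confidence interval -0.30 to 0.53) that ran from 0.035 (without WT replicate 3) to 0.29 (without PGR-A KO replicate 3). Ramp2 overlaps Vps25 on the same strand, so its value depends on how shared reads were divided. S1pr1, the sphingosine 1-phosphate receptor that stabilises vessels and guides lymphocytes, had 1.90 ± 0.272 TPM in KO against 1.79 ± 0.450 TPM in WT (SD, n = 4 each), a log2 change of 0.064.

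The peptide ligand Apln was 6.86 to 27.5 times as abundant as its receptor Aplnr within a library. Apln read 24.5, 22.2, 12.2 and 23.2 TPM in PGR-A KO replicates 1 to 4 and 22.3, 19.0, 12.0 and 16.2 TPM in WT replicates 1 to 4. Like Cd34, it was highest in PGR-A KO replicate 1 and was low in PGR-A KO replicate 3 and WT replicate 3. Its log2 change was 0.22 (95% confidence interval -0.32 to 0.76, limma adjusted p = 0.909). With a library left out that change ran from 0.060 (without WT replicate 3) to 0.44 (without PGR-A KO replicate 3). With PGR-A KO replicate 3 left out along with WT replicate 1 it was 0.56 with a limma adjusted p of 0.0623. Aplnr stood at 1.59, 1.97, 0.445 and 1.18 TPM in PGR-A KO replicates 1 to 4 and at 1.52, 2.77, 1.27 and 0.654 TPM in WT replicates 1 to 4. WT replicate 2 was the highest library and PGR-A KO replicate 3 the lowest, a range of 6.22-fold, and the log2 change was -0.14 (95% confidence interval -0.78 to 0.51).

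Among secreted proteins, Egfl7, a vessel matrix protein whose gene hosts a microRNA, had 9.04 ± 1.97 TPM in KO against 10.8 ± 3.22 TPM in WT (SD, n = 4 each), a log2 change of -0.21 (95% confidence interval -0.65 to 0.23). Without WT replicate 2 the log2 change of Egfl7 was -0.037, and its lowest value with a library left out was -0.33 (without PGR-A KO replicate 2). Egfl7 overlaps the gene model Gm20532 on the same strand, which makes its value uncertain. Vwf, the clotting factor carrier of endothelial cells and platelets, was among the rarest members. Vwf read 0.156, 0.183, 0.212 and 0.674 TPM in PGR-A KO replicates 1 to 4 and 0.305, 0.335, 0.281 and 0.296 TPM in WT replicates 1 to 4. PGR-A KO replicate 4 was the highest of the 8 libraries and the other KO libraries were the lowest, with an exact 2-sided permutation p of 1 over the 8 libraries and of 0.0286 without PGR-A KO replicate 4. The matrix protein Mmrn2 had means of 0.277 TPM in KO and 0.417 TPM in WT (exact 2-sided permutation p = 0.600), and Nos3, the endothelial nitric oxide synthase, 0.432 and 0.589 TPM (exact 2-sided permutation p = 0.514). Ecscr, a surface regulator of endothelial signalling, had 1.59 ± 0.591 TPM in KO against 2.07 ± 1.22 TPM in WT (SD, n = 4 each), a log2 change of -0.18.

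Of the transcription factors, Erg and Sox18 were tested. Erg, an ETS factor that maintains endothelial identity, had 0.975, 1.24, 1.49 and 0.873 TPM in PGR-A KO replicates 1 to 4 and 1.55, 1.55, 1.48 and 1.46 TPM in WT replicates 1 to 4. PGR-A KO replicate 3 lay within the narrow WT range and the other KO libraries lay below it. The log2 change of Erg was -0.24 (SE 0.12, 95% confidence interval -0.51 to 0.039, limma adjusted p = 0.796).

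Sox7, Sox17 and Sox18 are related SOX factors that act in vessel development. Sox18 had 7.95 ± 2.03 TPM in KO against 9.19 ± 1.52 TPM in WT (SD, n = 4 each), a log2 change of -0.20, and Sox7 had means of 0.369 and 0.425 TPM. Sox17 read 0.509, 0.476, 2.19 and 0.465 TPM in PGR-A KO replicates 1 to 4 and 0.697, 0.655, 0.715 and 1.81 TPM in WT replicates 1 to 4. A single library of each genotype, PGR-A KO replicate 3 in one case and WT replicate 4 in the other, was high. The leukocyte marker Ptprc, named after its values were seen, was also highest there, at 1.55 and 1.36 TPM beside 0.448 to 0.881 TPM in the other libraries. Of 12 macrophage and leukocyte markers, 4 were highest in PGR-A KO replicate 3, while C1qc and Cd68 were highest in WT replicate 3. The part of leukocytes in the Sox17 values was not tested. The exact 2-sided permutation p was 0.514 for Sox7 and 0.800 for Sox17.

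The lymphatic members were compared with Lyve1, a hyaluronan receptor of lymphatic endothelium and some macrophages, which was lower in PGR-A KO. Lyve1 stood at 23.3, 19.6, 35.6 and 18.8 TPM in PGR-A KO replicates 1 to 4 and at 267, 161, 155 and 127 TPM in WT replicates 1 to 4, a log2 change of -2.81 (95% confidence interval -3.37 to -2.24, limma adjusted p = 0.00919). Of 10 macrophage and leukocyte markers tested, 8 were also lower in KO, beside 57.4% of all genes tested. At an unadjusted limma p under 0.05, 2 of them (C1qc and Cd68) were lower, beside 5.33% of all genes tested. The median log2 change over the list was -0.28, beside -0.023 over all genes tested. The part of these cells in the Lyve1 value was not tested. The lymphatic members overlapped between the genotypes. Prox1 was under 1 TPM in every library, with 0.672, 0.735, 0.559 and 0.667 TPM in PGR-A KO replicates 1 to 4 and 0.693, 0.643, 0.510 and 0.538 TPM in WT replicates 1 to 4. The groups overlapped, with means of 0.658 TPM in KO and 0.596 TPM in WT (exact 2-sided permutation p = 0.257).

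Flt4, the receptor for the lymphatic growth factor VEGF-C, read 0.777, 1.14, 0.660 and 0.731 TPM in PGR-A KO replicates 1 to 4 and 0.849, 2.44, 1.07 and 0.728 TPM in WT replicates 1 to 4. WT replicate 2 alone was above 2 TPM, and the exact 2-sided permutation p was 0.400. Mmrn1, a matrix protein of lymphatic endothelium and platelets, read 0.621, 0.617, 0.470 and 0.713 TPM in PGR-A KO replicates 1 to 4 and 0.627, 0.891, 0.808 and 0.506 TPM in WT replicates 1 to 4. Its groups overlapped, with an exact 2-sided permutation p of 0.343.

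Pdpn, Reln and Ccl21a stood well above Prox1. Pdpn, a mucin-type glycoprotein of lymphatic vessels that is also found on mesothelium and stroma, was at 38.4, 46.7, 49.5 and 36.9 TPM in PGR-A KO replicates 1 to 4 and at 36.2, 31.98, 42.8 and 41.5 TPM in WT replicates 1 to 4. It was 49.8 to 88.6 times as high as Prox1 within a library, with a log2 change between genotypes of 0.17 (95% confidence interval -0.12 to 0.45). Reln, a secreted glycoprotein known from neurons and collecting lymphatics, was at 15.7, 20.5, 24.8 and 16.7 TPM in PGR-A KO replicates 1 to 4 and at 15.5, 16.2, 25.0 and 23.5 TPM in WT replicates 1 to 4. Its high libraries came from both genotypes, PGR-A KO replicate 3 with WT replicates 3 and 4, and the log2 change was -0.038 (95% confidence interval -0.46 to 0.39). For Pdpn and Reln the intervals exclude a change of the size seen for Lyve1.

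Ccl21a encodes a chemokine that draws dendritic cells and T cells to lymphatic vessels. It read 4.79, 7.00, 8.63 and 5.39 TPM in PGR-A KO replicates 1 to 4 and 5.50, 8.96, 7.44 and 5.92 TPM in WT replicates 1 to 4, a log2 change of -0.10 (95% confidence interval -0.53 to 0.33). The value is uncertain, because near-identical copies exist. Among GENCODE M21 transcripts the 870 bases of Ccl21a matched Gm21541 at 99.3% over 870 bases, Gm13304 at 99.4% over 837 bases, and Ccl21b and Gm10591 at 99.5% over 402 bases each. Ccl21b was listed at 0 in WT replicates 1 and 2 and in PGR-A KO replicate 1, and at 4.90 to 9.23 TPM in the others. Summed over Ccl21a, Ccl21b and Gm13304, the copies in the table, the level was 4.79 to 16.9 TPM in KO and 5.50 to 16.7 TPM in WT.

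**Figure D3:**
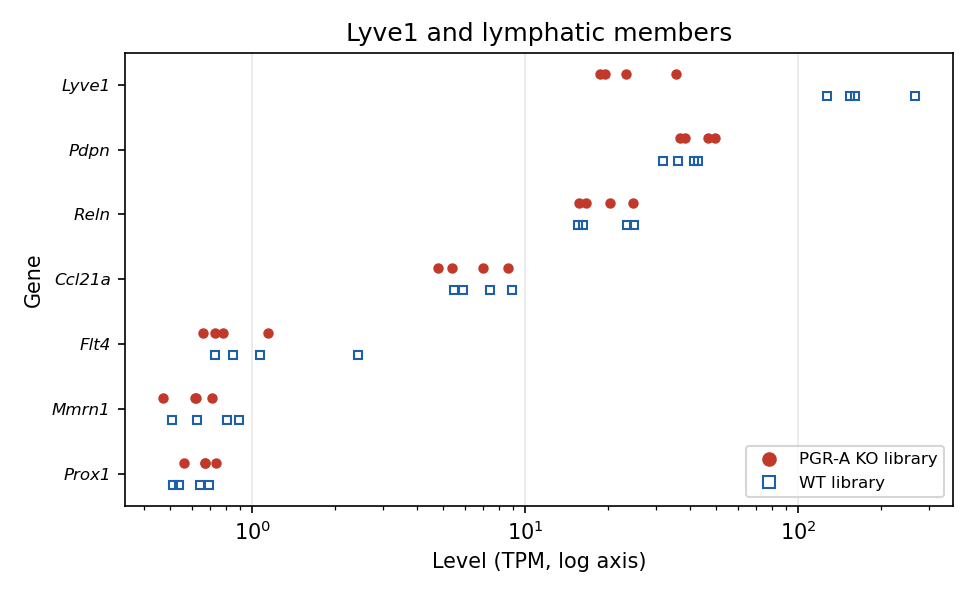
Lyve1 and the 6 lymphatic members in each library (horizontal log axis, TPM); filled circles are the 4 PGR-A KO libraries and open squares the 4 WT libraries. The Lyve1 groups are separate, at 18.8 to 35.6 TPM and 127 to 267 TPM, whereas the groups of Pdpn, Reln, Ccl21a, Flt4, Mmrn1 and Prox1 overlap.

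The members also varied between libraries of the same genotype. WT replicate 2 was the highest of the 8 libraries for 20 of the 32 members (62.5%), beside 15.7% of all genes tested, and it was the lowest for Pdpn. PGR-A KO replicate 3 was the lowest library for 15 of the 32 (46.9%), beside 24.7% of all genes tested. These counts were made after the values had been seen and carry no test. In WT replicate 2 the level was above the median of the other 3 WT libraries for 28 of 32 members, with a median ratio of 1.55, whereas 43.4% of all genes tested were above it, with a median ratio of 0.971.

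The members highest in WT replicate 2 included junction proteins, receptors and matrix proteins. Ecscr was 3.06 times as high there as the median of the other WT libraries, Mmrn2 3.05 times, Emcn 2.89 times, Flt4 2.87 times, Nos3 2.73 times, Icam2 2.42 times, Eng 2.11 times and Cldn5 2.08 times. Emcn, for example, stood at 6.38 TPM in WT replicate 2 and at 3.94, 1.91 and 2.21 TPM in WT replicates 1, 3 and 4. The 4 members below the median of the other WT libraries were Reln (0.691 times), Pdpn (0.771 times), Sox18 (0.863 times) and Sox17 (0.916 times), and Cd34 stood at 1.34 times.

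**Figure D4:**
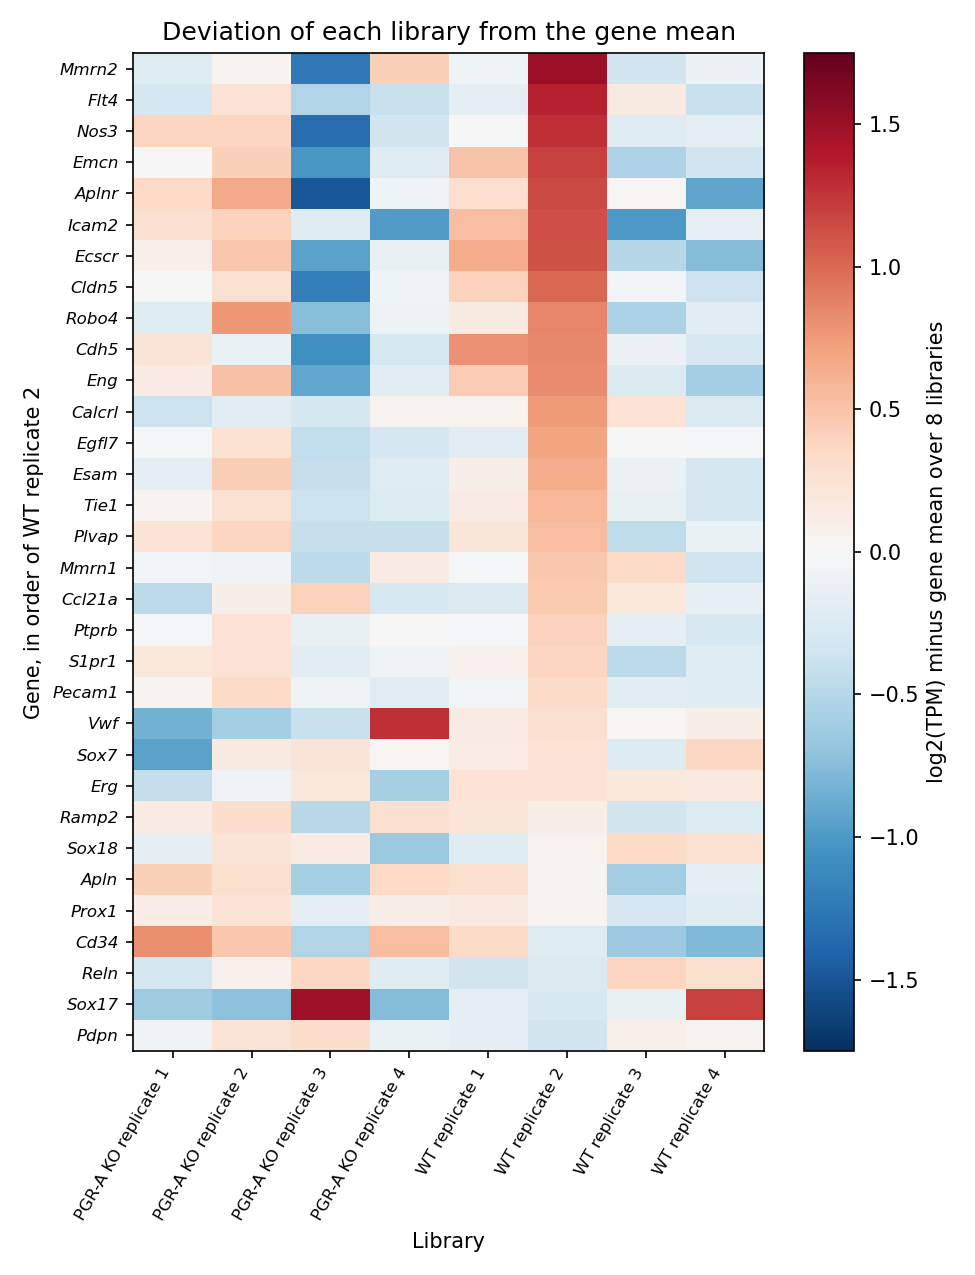
Each library's level of each of the 32 members as a difference in log2(TPM) from the gene's mean over the 8 libraries (colour; red above and blue below the mean), with the genes in order of WT replicate 2. The column of WT replicate 2 is red for most genes and that of PGR-A KO replicate 3 blue for most of the same upper rows, while Cd34, Reln, Sox17 and Pdpn at the bottom have other patterns.

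Markers of other cells were counted in the same way. Of all genes tested, WT replicate 2 was the highest library for 15.7% and the lowest for 19.3%. For PGR-A KO replicate 3 these shares were 13.4% and 24.7%. WT replicate 2 was the highest library for 8 of 10 granulosa markers and 4 of 11 pericyte and smooth muscle markers, and the lowest for 9 of 9 oocyte and 5 of 5 erythroid markers. Summed erythroid markers were 1732 TPM there, the lowest value, and 3660 to 11370 TPM in the other 7 libraries. Of 12 macrophage and leukocyte markers 2 were highest in it, and of 8 megakaryocyte and platelet markers 2. Of 11 theca and stroma markers 3 were highest in WT replicate 2 and 1 was lowest. Their summed level was 369 TPM there, the highest value, and 187 to 244 TPM in the other libraries. PGR-A KO replicate 3 was the highest library for 9 of 9 oocyte markers, 4 of 12 macrophage and leukocyte markers and 3 of 11 pericyte and smooth muscle markers. It was the lowest for 4 of 10 granulosa, 4 of 9 surface epithelium and 4 of 11 pericyte and smooth muscle markers. The part of these cells in the endothelial values was not tested.

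Between genotypes the summed levels of the other cell lists overlapped for each list. They were 67.4 to 97.1 TPM in KO and 68.4 to 108 TPM in WT for pericytes and smooth muscle, and 3.77 to 10.0025 and 4.99 to 10.7 TPM for platelets. For macrophages and leukocytes they were 58.8 to 126 and 90.7 to 128 TPM, for theca and stroma 198 to 244 and 187 to 369 TPM, and for surface epithelium 117 to 122 and 120 to 153 TPM. For granulosa cells the sums were 4539 to 5817 and 4957 to 7361 TPM, for oocytes 795 to 1417 and 577 to 1080 TPM, and for erythroid cells 3660 to 6318 and 1732 to 11370 TPM. By the sign of the log2 change of the markers tested, some lists lay mostly to 1 side. In KO, 9 of 9 oocyte markers (median log2 change 0.25) and 5 of 5 erythroid markers (median 0.18) were higher. The 9 of 9 surface epithelium markers (median -0.15) and 9 of 10 granulosa markers (median -0.22) were lower. So were 8 of 10 macrophage and leukocyte markers (median -0.28). Of all genes tested, 57.4% were lower, with a median of -0.023. In these lists 0 markers passed at an adjusted limma p under 0.05, and their part in the members' values was not tested. In each of these lists 0 markers were at 0 in all libraries, and Gp9, a platelet receptor subunit named after its values were seen, was listed at 0 in 6 of the 8.

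Further vessel genes outside the list were read from the same fit. Of 36 other blood endothelial genes, 21 were tested and 0 passed at an adjusted limma p under 0.05. At an unadjusted limma p under 0.05, 0 of the 21 were higher, beside 0.974% of all genes tested. At that p 2 were lower, Fli1 and Angpt2, beside 5.33% of all genes tested. By the sign of the log2 change 13 of the 21 were higher in KO and 8 lower, with a median of 0.10. Among the members 6 were higher and 16 lower, and 57.4% of all genes tested were lower. Fli1, an ETS factor related to Erg, had 1.57 ± 0.242 TPM in KO against 2.16 ± 0.257 TPM in WT (SD, n = 4 each), a log2 change of -0.30 (limma adjusted p = 0.783). Angpt2, the ligand that loosens vessels through the receptor Tek, had 8.19 ± 3.82 TPM in KO against 13.3 ± 4.31 TPM in WT (SD, n = 4 each), a log2 change of -0.66 (limma adjusted p = 0.783). The most abundant of these genes, the endothelial junction regulator Heg1, had 190 ± 58.3 TPM in KO against 142 ± 34.2 TPM in WT (SD, n = 4 each). Which cells gave the Heg1 level was not tested.

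WT replicate 2 was the highest library for 15 of these 36 genes, beside 15.7% of all genes tested. Of 13 further lymphatic genes found in the table, 9 were tested and only Lyve1 passed. The most abundant, the gap junction gene Gja1, had 1206 ± 244 TPM in KO against 1642 ± 564 TPM in WT (SD, n = 4 each) (limma adjusted p = 0.845). Gja1 ran from 881 to 2209 TPM over the libraries, beside 0.510 to 0.735 TPM for Prox1. Which cells gave the Gja1 level was not tested, so it is not read here as a lymphatic level.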

How the data were processed

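Per the labels' protocols, TruSeq stranded mRNA libraries were sequenced as paired ends. Gene levels were deposited by the authors as TPM, in a table with gene symbols as rows. FastQC, Salmon, limma and edgeR, and mm10, appear in the submitters' processing notes; the annotation, and how transcripts were summed, is not given in the sources used here. TPM summed to between 994519 and 997022 per library, and depth is unknown. Groups and replicate numbers came from the sample titles.

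The test was limma (version 3.58.1, R 4.3.3, intensity trend, no covariate) on log2(TPM + 1), over the 14472 genes that reached 1 TPM in 4 or more of the 8 libraries. Log2 changes are KO minus WT, and for low genes they understate the change. Tests were 2-sided, with Benjamini-Hochberg adjustment over all genes tested and a threshold of 0.05. The 10 members below the filter were compared by an exact 2-sided permutation test of mean TPM over 70 assignments, whose smallest p is 0.0286. The limma step was tested on simulated data. Copies were searched with BLASTN 2.17.0, and positions are from GENCODE M21.

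Members and lists were chosen with earlier results of these data known. The rule gave library values for the most abundant members (Cd34, Pdpn, Reln), members at an unadjusted p under 0.05 (none), the lymphatic members, Calcrl with Ramp2, and Apln with Aplnr. Cdh5, Pecam1, Erg, Vwf and Sox17 were added after their values were seen. Alternatives were other pseudocounts, filters, scalings and limma settings, a replicate block, a covariate and libraries left out.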

Additional observations from a re-analysis of the deposited data

Results flagged for a closer look

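In 6 of 64 groups of 4 libraries, a member's level in a library lay far from the other 3. The rule compared the gap to the nearest library with the range of the group. It would give about 3.2 for normally distributed values of independent genes. Many members rose together in WT replicate 2, so 3.2 is no valid expectation here and the count carries no test. WT replicate 2 was above the other WT libraries for Egfl7 (15.5 TPM, the others 8.45 to 9.64 TPM), Mmrn2 (0.860 TPM, the others 0.240 to 0.287 TPM) and Nos3 (1.10 TPM, the others 0.391 to 0.457 TPM). Sox17 stood out in PGR-A KO replicate 3 (2.19 TPM, the other KO libraries 0.465 to 0.509 TPM) and in WT replicate 4 (1.81 TPM, the other WT libraries 0.655 to 0.715 TPM). Vwf stood out in PGR-A KO replicate 4 (0.674 TPM, the other KO libraries 0.156 to 0.212 TPM).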

How the results depend on the processing

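The count of members past the threshold stayed at 0 in the alternatives to the fit, except that Cd34 passed (log2 change 1.14, 1 member) with PGR-A KO replicate 3 and also WT replicate 1 left out. That fit also gave 1131 of 14114 genes past the threshold. At an unadjusted limma p under 0.05, 3 of 20 members were higher and 1 lower in it, beside 1561 genes higher and 1982 lower over all 14114. Over all genes the count past the threshold was 2, became 1 at a pseudocount of 5, and ran from 0 (without WT replicate 2) to 6 (without PGR-A KO replicate 3) with a library left out. Members at an unadjusted limma p under 0.05 were 1 of 22 lower (Erg) without trend, beside 746 of 14472 genes. With a library left out, 0 to 2 of the 20 or 22 members tested were lower and 0 to 2 higher. Over all genes, 393 to 1427 were then lower and 65 to 535 higher, of 14281 to 14368 tested. Of the 10 members below the filter, 0 to 1 had an exact p under 0.05 with a library left out. This was Vwf without PGR-A KO replicate 4, its highest library, so that p does not measure an effect of genotype.

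Whether the replicate numbers pair the libraries is not settled. Same-numbered libraries correlated at 0.36, -0.11, 0.39 and -0.29 after group means were removed, and not every library correlated best with its own number. The replicate block gave 2 genes past the threshold. In it 1 of 22 members was lower (Cdh5) and 1 higher (Cd34) at an unadjusted limma p under 0.05. Over all 14472 genes, 1112 were lower and 256 higher at that p.

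Of 395 log2 changes of single members under alternatives, 22 changed sign. Plvap was 0.019 with quantile normalization and 0.0027 with the endothelial covariate (the mean of Kdr, Cd93, Clec14a and Adgrl4). With PGR-A KO replicate 3 and also WT replicate 1 left out, Eng was 0.11, Aplnr 0.083, Ecscr 0.068, Ccl21a -0.32 and Reln -0.26. With a library left out the ranges were -0.13 to 0.011 for Plvap, -0.23 to 0.014 for Ccl21a, -0.16 to 0.074 for Reln, -0.034 to 0.15 for Pecam1, -0.34 to 0.030 for Eng, -0.33 to 0.070 for Aplnr, -0.28 to 0.015 for Esam, -0.41 to 0.040 for Icam2, -0.37 to 0.036 for Ecscr and -0.020 to 0.16 for S1pr1. Ranges that kept their sign and are not given above were -0.31 to -0.048 for Sox18, -0.14 to -0.033 for Tie1, 0.086 to 0.23 for Pdpn and -0.31 to -0.17 for Erg. Unknown depth leaves values under 1 TPM without a counting error. The cause of these changes was not tested.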
